A study of Mus musculus with 31 samples.

Results

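Spheroids of mouse pancreatic cancer cells that lacked Cxcl5 and overexpressed a mutant form of Hif1a (Hif1aOECxcl5-/-, n = 3) were compared with spheroids of Cxcl5-/- cells without that transgene (n = 2), gene by gene, by RNA sequencing of cells grown in 3D. These 5 samples of the 31 in the series were chosen by their labels, not by any measured value. The same count table held WT spheroids (n = 2) and Cxcl5-/- spheroids that overexpressed Myc (MycOECxcl5-/-, n = 3), which were used to place the levels. The study names the line Panc02, a murine pancreatic ductal adenocarcinoma line grown here as spheroids in Matrigel, while the labels of these samples give a line name whose number rises from sample to sample. Cxcl5 was disrupted with a CRISPR guide delivered by lentiCRISPRv2, and Cxcl5-/- cells were the parent of both overexpression lines. Mouse mutant Hif1a was introduced with the retroviral vector pLPCX and puromycin selection. A Cxcl5-/- line carrying an empty vector was not part of the comparison, so the effect of the transgene and that of transduction and selection cannot be told apart. The labels number the samples of a group without naming separate cultures, so the p-values measure the spread between these samples, which may be technical.

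HIF1 is a transcription factor made of an alpha subunit, encoded by Hif1a, and a beta subunit, encoded by Arnt. In oxygenated cells prolyl hydroxylases (the Egln genes) mark the alpha subunit, the von Hippel-Lindau protein Vhl binds it, and it is degraded. In hypoxia, or when the hydroxylated residues are mutated, the alpha subunit accumulates and HIF1 binds the core motif ACGTG, and less often a form that starts with G in place of A, near genes for glucose uptake, glycolysis, angiogenesis and mitochondrial turnover. The comparison addressed whether forced Hif1a returns the expression programme of Cxcl5-/- spheroids, in which the study examined reduced hypoxia and metabolic genes.

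The libraries held between 42281281 and 43890492 counts in the Cxcl5-/- samples and between 51419869 and 64872036 in the Hif1aOECxcl5-/- samples. Levels are given as normalised counts (CPM), put on a common library size by the trimmed mean of M values (TMM). The groups differed in more than single genes. The small structural RNAs 7SL and 7SK took 7.62% to 8.89% of counts in Cxcl5-/- libraries and 14.8% to 18.6% in Hif1aOECxcl5-/- libraries, and Malat1, a nuclear noncoding RNA, took 4.67% to 4.69% and 1.18% to 1.81%. Of 1396 chemoreceptor genes, which pancreatic cells are not known for, 254 to 307 had a count in Cxcl5-/-, 620 to 810 in Hif1aOECxcl5-/- and 1344 to 1349 in WT, so the WT libraries stood apart by low counts over many genes. The sample titles of the Cxcl5-/- and WT libraries follow another naming pattern than those of the overexpression lines, and a preparation batch, if there was one, cannot be told apart from the group.

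Hif1a itself (chr12:73901375-73947530, plus strand, GRCm38) was higher in every Hif1aOECxcl5-/- sample than in both Cxcl5-/- samples. Its level was 144 and 134 CPM in Cxcl5-/- and 258, 296 and 243 CPM in Hif1aOECxcl5-/-. The groups did not overlap, and the difference was 1.92-fold (log2 fold change 0.94, standard error 0.102, edgeR adjusted p = 2.99e-05). WT spheroids carried Hif1a at 304 and 324 CPM, and MycOECxcl5-/- spheroids at 241, 271 and 262 CPM. The difference of Hif1aOECxcl5-/- from either group did not pass the edgeR test (log2 fold change -0.24, adjusted p = 0.0999, and 0.04, adjusted p = 0.826), although both WT samples lay above every Hif1aOECxcl5-/- sample. Counts per gene do not separate vector transcripts from endogenous ones, and they do not measure HIF1 alpha protein, which the mutation acts on.

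Cxcl5 (chr5:90759360-90761624, plus strand), the chemokine gene that had been disrupted, stayed at the level of the parent line. It was at 36.6 and 40.2 CPM in Cxcl5-/- and at 35.5, 44.8 and 38.1 CPM in Hif1aOECxcl5-/- (log2 fold change 0.04, standard error 0.127, adjusted p = 0.851). Both groups lay under WT, at 64.2 and 67.7 CPM. Transcripts of an edited gene can still be counted, and gene counts do not show whether they carry an edit. Myc (chr15:61985391-61990374, plus strand), a regulator of growth and a frequent partner of HIF1 in tumours, was at 22.3 and 20 CPM in Cxcl5-/-, at 23, 26.8 and 25.6 CPM in Hif1aOECxcl5-/- and at 49.3 and 46.1 CPM in WT. The Myc difference from Cxcl5-/- was small and did not pass the test (log2 fold change 0.25, standard error 0.135, adjusted p = 0.175), and the level stayed under WT (log2 fold change -0.92, adjusted p = 0.000625).

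**Figure D1:**
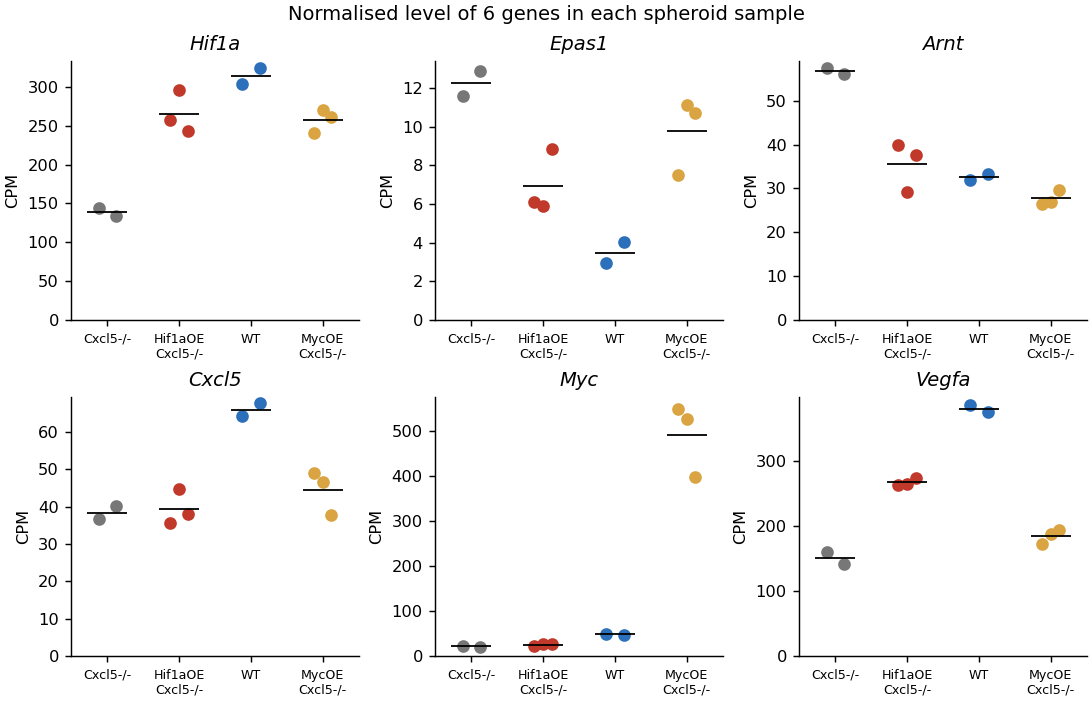
Normalised level (CPM, linear axis from 0) of Hif1a, Epas1, Arnt, Cxcl5, Myc and Vegfa in each sample of the 4 groups; points are samples and bars are group means. Hif1a in Hif1aOECxcl5-/- (243 to 296 CPM) lies above Cxcl5-/- (134 and 144 CPM) and under WT (304 and 324 CPM), while Cxcl5 and Myc lie near the Cxcl5-/- level.

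Of the 5 genes for HIF subunits 2 were higher (Hif1a and Hif3a) and 2 lower (Arnt and Epas1). Arnt, the beta subunit, fell from 57.5 and 56.0 CPM to 40.0, 29.2 and 37.7 CPM (log2 fold change -0.67, standard error 0.12, adjusted p = 0.000991). Epas1, which encodes the related alpha subunit HIF2 alpha, was at 11.6 and 12.9 CPM in Cxcl5-/- and at 6.10, 5.91 and 8.84 CPM in Hif1aOECxcl5-/- (log2 fold change -0.82, adjusted p = 0.0138), a call that was lost without replicate 2 of Cxcl5-/- (the highest adjusted p with 1 sample left out was 0.0982). Hif3a, another alpha subunit gene, had 0 counts in both Cxcl5-/- samples and 0.294, 0.315 and 0.163 CPM in Hif1aOECxcl5-/-, at least 4.17-fold higher against a floor of 3 counts per library (adjusted p = 0.0395), a call lost in 4 of the 5 fits that left out 1 sample. Among 9 genes for hydroxylation and turnover 3 rose (33.3%) and 1 fell (11.1%), next to 33.7% higher and 24.9% lower over genes averaging at least 50 counts. Egln2, a prolyl hydroxylase, rose by 0.58 on the log2 scale (adjusted p = 0.00074), Vhl by 0.53 (adjusted p = 0.000626) and the ubiquitin ligase gene Siah2 by 0.94 (adjusted p = 5.41e-05). Egln1 and Egln3, the hydroxylase genes that are themselves known HIF targets, did not pass the test (log2 fold change 0.23, adjusted p = 0.0559, and -0.27, adjusted p = 0.0748).

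Of 28730 genes tested, 5904 were higher (20.5%) and 4308 lower (15.0%) in Hif1aOECxcl5-/- than in Cxcl5-/- at an edgeR quasi-likelihood adjusted p under 0.05. Without replicate 1 of Cxcl5-/- these were 4332 and 2863. Among the called genes, 3056 were more than 2-fold higher and 2129 more than 2-fold lower. The median log2 fold change was 0.16 over all tested genes and 0.09 over the 14926 genes averaging at least 50 counts, of which 5026 were higher (33.7%) and 3718 lower (24.9%). The median over all tested genes ranged from 0.08 to 0.23 with 1 sample left out. It was 0.02 with only the groups compared in the fit and 0.004 with a filter of at least 10 counts in every sample. Calls were higher in 57.8% of cases with TMM scaling and in 43.6% with scaling to the library totals (4335 higher, 5604 lower), which set the median of all tested genes to 0.0 and that of the better counted genes to -0.13. Against MycOECxcl5-/- 2796 genes were higher (9.73%) and 2742 lower (9.54%), and against WT 4001 were higher (13.9%) and 2961 lower (10.3%). By DESeq2, the test the study used, the balance against WT turned, with 3020 higher and 3719 lower. Of the 14926 genes averaging at least 50 counts, 3918 were higher and 1551 lower than in WT by edgeR, and 2422 and 2488 than in MycOECxcl5-/-. With library totals the share of higher calls went from 50.5% to 63.9% against MycOECxcl5-/- and from 57.5% to 38.1% against WT. The counts against WT rested on both WT samples, with 2138 higher and 1039 lower without WT replicate 1, and 2174 and 1022 without replicate 2.

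On the 500 most variable genes averaging at least 50 counts, the first 2 principal components held 40.3% and 32.1% of the variance. Along them the mean Hif1aOECxcl5-/- sample lay 7.96 units from the WT mean, 76.7 from the Cxcl5-/- mean and 76.2 from the MycOECxcl5-/- mean (log2 CPM units). Over all 500 genes the distances were 49.5, 78.8 and 77.9 units. The median absolute log2 difference per gene over the 14926 genes gave another order, with 0.28 to MycOECxcl5-/-, 0.35 to WT and 0.56 to Cxcl5-/-.

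The fold changes against Cxcl5-/- followed transcript length. With the genes cut by transcript length into 4 classes of near equal size, in the class with the shortest transcripts (59 to 1823 bases) 53.9% were higher and 9.29% lower, with a median log2 fold change of 0.67. In the class with the longest (4481 bases and more) 16.1% were higher and 45.3% lower, with a median of -0.27. Against MycOECxcl5-/- the medians of the same classes were -0.12 and 0.06, and against WT 0.30 and 0.08. The gradient was thus steepest in the comparison with Cxcl5-/-. Length moved with the result, and its part in the result was not tested. For this reason most of the gene lists that follow are given with their median and with the median left after subtracting, from each member, the median of genes of like length, an adjustment chosen after the data were seen.

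**Figure D2:**
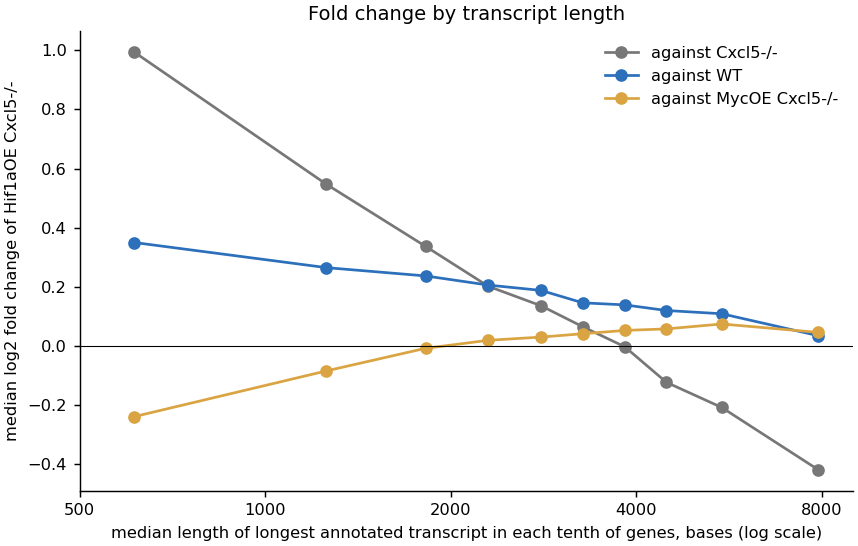
Median log2 fold change of Hif1aOECxcl5-/- against Cxcl5-/-, WT and MycOECxcl5-/- in each of 10 classes of genes ordered by transcript length (log axis, bases; genes averaging at least 50 counts). The line against Cxcl5-/- falls from 0.99 in the shortest class across 0, while the line against WT starts at 0.35 and that against MycOECxcl5-/- at -0.24.

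Among genes known as hypoxia targets more were higher than lower. Of 56 tested, 32 rose (57.1%), 7 fell (12.5%) and 17 did not pass the test, against 33.7% higher and 24.9% lower over genes averaging at least 50 counts. With library totals 28 were higher and 9 lower. The list had a median log2 fold change of 0.78 (0.67 after subtracting genes of like length). Hilpda, a lipid droplet protein of hypoxic cells, was at 14.5 and 13.6 CPM and at 56.9, 74.2 and 53 CPM (log2 fold change 2.13, adjusted p = 1.41e-06). The gene was more than 4-fold higher, with no overlap between groups. Selenbp1 rose from 16.6 CPM in both Cxcl5-/- samples to 106, 108 and 104 CPM (log2 fold change 2.68, adjusted p = 3.25e-08), and the metallothionein gene Mt1 from 193 and 204 CPM to 965, 1200 and 861 CPM (log2 fold change 2.34, adjusted p = 2.16e-06).

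Vegfa, Bnip3 and Ero1a, long known as targets, rose by less than Hilpda, Selenbp1 and Mt1 and by more than the median of the list. Vegfa, the main angiogenic growth factor, rose from 160 and 141 CPM to 263, 265 and 274 CPM (log2 fold change 0.83, standard error 0.0873, adjusted p = 2.44e-05) and stayed under WT, at 386 and 375 CPM (log2 fold change -0.51, adjusted p = 0.00157). Bnip3, a mitophagy receptor, rose from 302 and 291 CPM to 671, 740 and 576 CPM (log2 fold change 1.16, adjusted p = 1.11e-05). Ero1a, an oxidase of protein folding in the endoplasmic reticulum, rose from 394 and 383 CPM to 819, 708 and 698 CPM (log2 fold change 0.93, adjusted p = 0.000168). WT samples carried Ero1a at 2210 and 2330 CPM, so the Hif1aOECxcl5-/- level remained 1.61 log2 units under WT (log2 fold change -1.61, adjusted p = 1.22e-05).

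Several well-known targets did not pass the test. Car9, a cell surface carbonic anhydrase that is widely used as a hypoxia marker, was at 3.22 and 3.55 CPM in Cxcl5-/- and at 2.86, 4.02 and 5.66 CPM in Hif1aOECxcl5-/- (log2 fold change 0.31, standard error 0.305, adjusted p = 0.466). The same gene was at 61.0, 95.1 and 55.8 CPM in MycOECxcl5-/-, 4.08 log2 units above Hif1aOECxcl5-/- (log2 fold change -4.08, adjusted p = 1.97e-06). Pdk1, the kinase that restrains pyruvate entry into mitochondria, gave 0.13 (adjusted p = 0.238), and P4ha1, a collagen prolyl hydroxylase, gave -0.09 (adjusted p = 0.428). Bhlhe41, a transcriptional repressor, fell from 117 and 108 CPM to 42.9, 44.1 and 46.4 CPM (log2 fold change -1.34, adjusted p = 7.6e-07), close to the WT level of 49.1 and 43.7 CPM. Vldlr, a lipoprotein receptor, fell by 1.20 and Nos2, the inducible nitric oxide synthase, by 1.18 on the log2 scale. Set against WT, 4 hypoxia targets were higher and 22 lower (median log2 fold change -0.46), and against MycOECxcl5-/- 9 were higher and 14 lower. Over all tested genes 13.9% were higher and 10.3% lower than in WT, and 9.73% and 9.54% than in MycOECxcl5-/-. Of the 14926 genes averaging at least 50 counts, 3918 were higher and 1551 lower than in WT, and 2422 and 2488 than in MycOECxcl5-/-.

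Of 26 tested genes for glucose uptake and glycolysis 19 were higher (73.1%, against 33.7% of genes averaging at least 50 counts), 7 were not called and 0 were lower by edgeR (0 lower also at an unadjusted p under 0.05 and by DESeq2, but 16 higher and 1 lower with library totals), with a median log2 fold change of 0.90 (0.61 after subtracting genes of like length). The transporter Slc2a1 rose from 62.9 and 54.8 CPM to 168, 148 and 162 CPM (log2 fold change 1.44, standard error 0.132, adjusted p = 9.6e-06). Hk2, the hexokinase that traps glucose in the cell, rose from 42.1 and 41.3 CPM to 115, 84.9 and 97.7 CPM (log2 fold change 1.25, adjusted p = 2.21e-05). All 3 Hif1aOECxcl5-/- samples lay above both Cxcl5-/- samples for these genes and under both WT samples. Pgk1, which makes the first ATP of glycolysis, rose from 775 and 787 CPM to 1550, 1680 and 1370 CPM (log2 fold change 0.97, adjusted p = 2.42e-05). Ldha, which reduces pyruvate to lactate, rose from 706 and 708 CPM to 1460, 1720 and 1320 CPM (log2 fold change 1.09, adjusted p = 2.76e-05). Aldoa, the muscle-type aldolase, rose by 0.75 on the log2 scale (adjusted p = 0.000172) and the pyruvate kinase gene Pkm by 1.17 (adjusted p = 8.68e-06). Gapdh was 1.42 log2 units higher, a value that is uncertain because Gapdh reads can be split among its many processed pseudogenes.

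Against WT 5 of the 26 glycolysis genes were higher, 12 lower and the others not called (median log2 fold change -0.30), and against MycOECxcl5-/- 5 were higher and 11 lower (median -0.18). The shares over all tested genes, which include low counts, were 13.9% higher and 10.3% lower against WT, and 9.73% and 9.54% against MycOECxcl5-/-. Of the 14926 genes averaging at least 50 counts, 3918 were higher and 1551 lower against WT, and 2422 and 2488 against MycOECxcl5-/-. Slc2a1 was at 268 and 281 CPM in WT, Hk2 at 183 and 170 CPM, Pgk1 at 2350 and 2290 CPM and Ldha at 2160 and 2060 CPM. The brain-type aldolase gene Aldoc ran the other way, at 0.684 and 2.46 CPM in WT, 14.9 and 15.8 CPM in Cxcl5-/- and 49.6, 45.1 and 50.8 CPM in Hif1aOECxcl5-/- (log2 fold change 1.66, adjusted p = 0.000577). Of 12 tested genes for lactate export and pH control, 3 rose and 3 fell (25% each, against 33.7% and 24.9% over genes averaging at least 50 counts; median -0.02, then -0.06 after subtracting genes of like length). That median rested on both Cxcl5-/- samples and was 0.24 when either one was left out. Slc16a1, a monocarboxylate transporter, rose by 0.52 and its chaperone Bsg by 1.17 on the log2 scale, and the HIF target Slc16a3, at 2.18 to 3.74 CPM in both groups, did not pass the test (log2 fold change -0.21, adjusted p = 0.591).

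**Figure D3:**
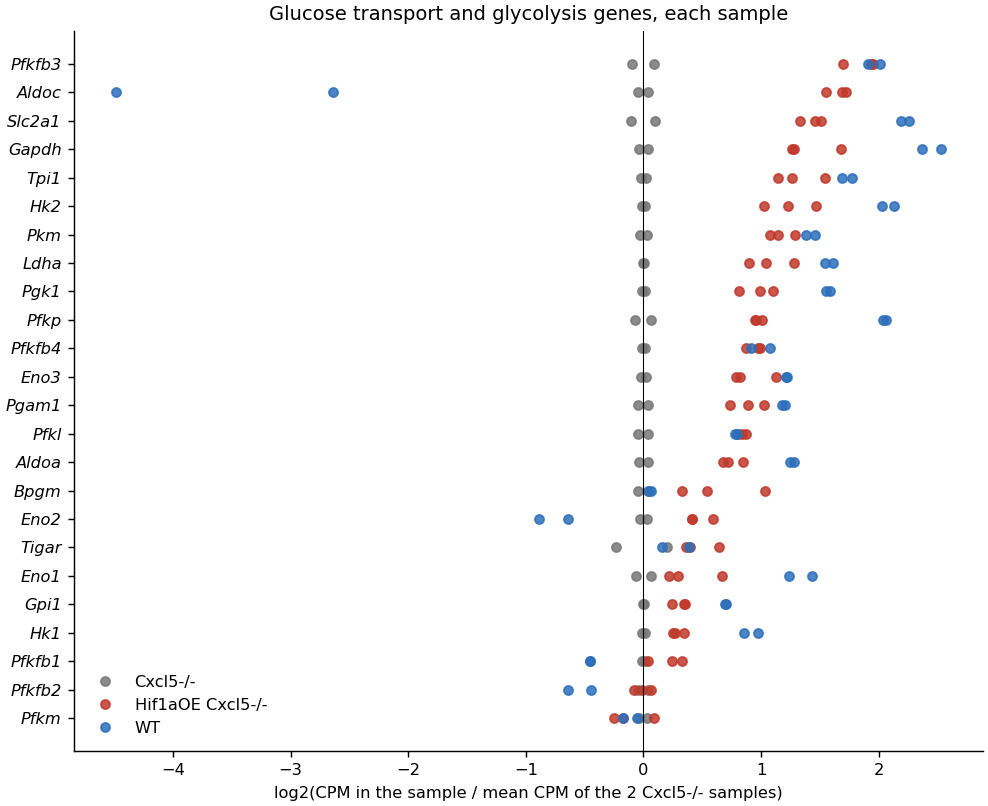
Level of each glucose transport and glycolysis gene averaging at least 50 counts in each sample, as log2 of its CPM over the mean of the 2 Cxcl5-/- samples; points are samples. For Slc2a1, Hk2, Ldha, Pgk1 and Aldoa the 3 Hif1aOECxcl5-/- points lie between the Cxcl5-/- points at 0 and the WT points, and Aldoc is the gene with WT far to the left.

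The 250 bases before the annotated start of these genes were searched on both strands for the motif ACGTG and for the second form, GCGTG. Promoter sequences were matched by symbol for 25 of the 26 glycolysis genes, of which 8 (32.0%) held the first motif and 10 (40.0%) the second form, against 16.6% and 28.2% of all 27025 promoters of that length. Of the 14910 genes averaging at least 50 counts 9812 had a sequence (under the minimum of 80% set here for reading a share), and 22% and 45.6% of those held the motifs. The list's share for the second form lay above that of all promoters and under that of these genes. Its order thus depended on the reference set, and no enrichment was tested. The hypoxia targets had a sequence for 43 of 56 genes, likewise under that minimum, and no share was read from them. Ldha, Pgk1, Hk2 and Bnip3 are shown because they were called and hold the first motif. They do not stand for the list, and the window of Aldoa, also called, held neither form. The windows are chr7:46845554-46845803 (plus strand) for Ldha, chrX:106186850-106187099 (plus) for Pgk1, chr6:82774455-82774704 (minus) for Hk2 and chr7:138909507-138909756 (minus) for Bnip3, read 5′ to 3′ on the strand of the gene from RefSeq on GRCm38.p6. The Ldha window lies within the longer annotated gene, whose first exon starts farther upstream. Capitals mark these motifs on either strand, so that ACGTG also appears as its complement CACGT, and the palindrome that joins both counts once on each strand.
Ldha: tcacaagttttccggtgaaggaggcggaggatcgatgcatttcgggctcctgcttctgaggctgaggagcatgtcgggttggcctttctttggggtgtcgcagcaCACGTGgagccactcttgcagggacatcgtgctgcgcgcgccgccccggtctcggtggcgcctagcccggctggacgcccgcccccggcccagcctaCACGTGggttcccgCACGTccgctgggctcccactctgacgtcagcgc
Pgk1: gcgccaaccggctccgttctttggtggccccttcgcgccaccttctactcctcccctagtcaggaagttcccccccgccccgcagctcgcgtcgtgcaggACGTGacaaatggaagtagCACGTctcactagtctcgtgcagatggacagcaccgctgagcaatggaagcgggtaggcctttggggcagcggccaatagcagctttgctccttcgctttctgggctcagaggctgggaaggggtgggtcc
Hk2: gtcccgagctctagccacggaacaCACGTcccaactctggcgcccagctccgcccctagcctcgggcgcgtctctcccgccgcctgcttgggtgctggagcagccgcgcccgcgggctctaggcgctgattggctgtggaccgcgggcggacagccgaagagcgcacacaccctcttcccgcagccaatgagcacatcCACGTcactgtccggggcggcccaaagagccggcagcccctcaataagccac
Bnip3: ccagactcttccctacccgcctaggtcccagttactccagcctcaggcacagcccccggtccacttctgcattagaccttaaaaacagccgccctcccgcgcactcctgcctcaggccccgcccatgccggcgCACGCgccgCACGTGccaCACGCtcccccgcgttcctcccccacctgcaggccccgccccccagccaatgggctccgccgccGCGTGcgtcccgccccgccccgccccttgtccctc
Counted on both strands, the Ldha window held the first motif 5 times, the Pgk1 and Hk2 windows 2 times each, and the Bnip3 window 2 times with 3 matches to the second form. A match to these letters is a description of the window and not a measured binding site.

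Among cell division genes most of the mitosis and replication lists were higher. Of 50 genes for mitosis and the spindle 49 were higher and 0 lower (47 and 0 with library totals; median log2 fold change 1.39, and 1.39 after subtracting genes of like length), and of 45 DNA replication genes 40 were higher and 0 lower (38 and 0 with library totals; median 0.94, then 0.82). Of 31 G1 cyclins, CDK inhibitors and p53 targets 13 were higher (41.9%) and 5 lower (16.1%), or 11 and 8 with library totals. Over genes averaging at least 50 counts 33.7% were higher and 24.9% lower. The shares higher were 98.0% in the mitosis list and 88.9% in the replication list, while the G1 list lay nearer to the share over genes. At an unadjusted p under 0.05 by edgeR, and by DESeq2, the number of lower genes was also 0 in the mitosis and the replication list. Cdk1, the kinase that drives entry into mitosis, was at 32.7 and 31.0 CPM in Cxcl5-/-, at 104, 135 and 92.7 CPM in Hif1aOECxcl5-/- and at 98.8 and 99.7 CPM in WT (log2 fold change 1.80, standard error 0.149 against Cxcl5-/-, adjusted p = 4.77e-06). Its cyclin gene Ccnb1 rose from 29.3 and 25 CPM to 124, 111 and 98.3 CPM (log2 fold change 2.03, adjusted p = 4.16e-07), with 93.1 and 95.3 CPM in WT. These were levels that overlapped WT or lay just above it. Cdc6, which loads the replicative helicase, rose from 6.83 and 6.64 CPM to 15.2, 18.1 and 16.1 CPM (log2 fold change 1.29, adjusted p = 1.55e-05). The helicase subunit gene Mcm5 rose by 1.57 and the spindle kinase gene Aurka by 1.97 on the log2 scale. Against WT the mitosis list had 6 genes higher and 10 lower, with a median of -0.08. Over all tested genes 13.9% were higher and 10.3% lower than in WT. Of the 14926 genes averaging at least 50 counts, 3918 were higher and 1551 lower than in WT.

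Genes of cholesterol synthesis showed the largest list median among those described as higher. Of 26 tested 23 were higher (88.5%) and 0 lower by edgeR (0 lower also unadjusted and by DESeq2, but 1 lower with library totals), with a median log2 fold change of 1.71 (1.56 after subtracting genes of like length). Over genes averaging at least 50 counts 33.7% were higher and 24.9% lower. Msmo1, a sterol demethylase, was at 138 and 146 CPM in Cxcl5-/- and at 611, 524 and 431 CPM in Hif1aOECxcl5-/- (log2 fold change 1.88, standard error 0.132, adjusted p = 1.66e-06). Dhcr7, which makes cholesterol in the last step of one branch, rose from 10.7 and 9.71 CPM to 31.2, 28.2 and 28.8 CPM (log2 fold change 1.52, adjusted p = 2.24e-06). Both were near WT, at 490 and 483 CPM for Msmo1 and 34.2 and 30.3 CPM for Dhcr7. They were also above MycOECxcl5-/-, with log2 fold changes of 0.51 (adjusted p = 0.00682) and 0.82 (adjusted p = 0.00011), and 17 of the 26 genes were higher than in MycOECxcl5-/- and 1 lower. Over all tested genes 9.73% were higher and 9.54% lower than in MycOECxcl5-/-. Of the 14926 genes averaging at least 50 counts, 2422 were higher and 2488 lower than in MycOECxcl5-/-. Srebf2, the transcription factor of this pathway, did not pass the test (log2 fold change 0.06, adjusted p = 0.605).

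Lists of the ATF4 stress response and of serine and one-carbon metabolism had more higher than lower members. In the ATF4 stress response list 23 of 32 were higher and 2 lower (median log2 fold change 0.91, then 0.73 after subtracting genes of like length). In the serine synthesis and one-carbon list 15 of 25 were higher and 2 lower (median 0.90, then 0.79). Against WT that list had 6 higher and 4 lower (median 0.06), and against MycOECxcl5-/- 4 higher and 11 lower (median -0.26). By gene set enrichment, the study reported that Myc overexpression, and not that of Hif1a, restored a serine, glycine and threonine gene set. That set is not the list used here. Of 26 amino acid transporter genes 8 were higher (30.8%) and 3 lower (11.5%), under the 33.7% and 24.9% over genes averaging at least 50 counts, and their median of 0.40 was 0.16 without Hif1aOECxcl5-/- replicate 1. Phgdh, the first enzyme of serine synthesis, rose from 81.5 and 88.1 CPM to 277, 334 and 248 CPM (log2 fold change 1.76, adjusted p = 4.84e-06) and Psat1, the next enzyme, from 150 and 133 CPM to 474, 470 and 413 CPM (log2 fold change 1.68, adjusted p = 4.8e-07). Asns, asparagine synthetase, rose by 1.44, Shmt2, the mitochondrial serine hydroxymethyltransferase, by 1.40 and Eif4ebp1, a translation repressor, by 1.45 on the log2 scale. Against WT the ATF4 list had 0 genes higher and 17 lower by edgeR (1 higher at an unadjusted p under 0.05 and 0 by DESeq2), and Trib3, a pseudokinase induced by this response, was at 18.5, 16.6 and 14.7 CPM against 61.6 and 67.0 CPM in WT (log2 fold change -1.96, adjusted p = 3.16e-06). Against MycOECxcl5-/- the ATF4 list had 1 higher and 17 lower. Over all tested genes 13.9% were higher and 10.3% lower than in WT, and 9.73% and 9.54% than in MycOECxcl5-/-. Of the 14926 genes averaging at least 50 counts, 3918 were higher and 1551 lower than in WT, and 2422 and 2488 than in MycOECxcl5-/-.

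Other metabolic lists differed among themselves. Of 34 purine and pyrimidine synthesis genes 28 were higher and 1 lower (19 and 3 with library totals; median log2 fold change 0.73, then 0.64 after subtracting genes of like length). Of 22 glycogen metabolism genes 4 were higher (18.2%) and 5 lower (22.7%), under the 33.7% and 24.9% over genes averaging at least 50 counts (median 0.06, then -0.17). Of 18 genes of the methionine cycle and transsulfuration 8 were higher (44.4%) and 4 lower (22.2%), with a median of 0.49, then 0.01. The glycogen median was -0.12 without Hif1aOECxcl5-/- replicate 1, 0.02 without Cxcl5-/- replicate 2, 0.09 without Hif1aOECxcl5-/- replicate 2 and 0.03 without replicate 3, and the methionine median was 0.30 without Cxcl5-/- replicate 2. Among 37 enzymes of galactose and nucleotide sugar metabolism 22 were higher and 4 lower (median log2 fold change 0.56, then 0.38 after subtracting genes of like length). Galk1, galactokinase, rose by 1.65 on the log2 scale, and B4galt1, a galactosyltransferase, fell by 1.11. Of 53 glutathione, antioxidant and ferroptosis genes 26 were higher and 5 lower (17 and 8 with library totals; median 0.38, then 0.27). Gpx4, which removes lipid peroxides, was at 176 and 186 CPM in Cxcl5-/- and at 317, 431 and 315 CPM in Hif1aOECxcl5-/- (log2 fold change 0.97, adjusted p = 0.000444). The cystine transporter gene Slc7a11 had overlapping groups (19.5 and 16.8 CPM against 32.6, 18.3 and 22.4 CPM, log2 fold change 0.43, adjusted p = 0.113). Gclc, the catalytic subunit of glutathione synthesis, rose by 0.48 on the log2 scale (adjusted p = 0.000499), but not with library totals (adjusted p = 0.0911).

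Ribosomal and respiratory genes are short, and their list medians changed when genes of like length were subtracted. Of 75 cytosolic ribosomal protein genes 74 were higher, with a median log2 fold change of 1.5 that became 0.79 after subtracting genes of like length, and 62 were lower than in MycOECxcl5-/-. Reads of these genes can be shared with pseudogenes, so single values are uncertain. Of 79 nuclear genes of the respiratory chain 74 were higher (93.7%, median 1.04, then 0.42). Of the 13 genes encoded in mitochondrial DNA, in contrast, 3 were higher (23.1%) and 7 lower (53.8%), with a median of -0.42, then -1.13. The summed level of these 13 genes was 12850 to 13240 CPM in Cxcl5-/- and 13610 to 17940 CPM in Hif1aOECxcl5-/-. The 40 ribosome biogenesis genes, which are longer, had 38 higher (median 0.83, then 0.77). Over genes averaging at least 50 counts 33.7% were higher and 24.9% lower than in Cxcl5-/-. In the class with the shortest transcripts these shares were 53.9% and 9.29%. Against MycOECxcl5-/- 9.54% of all tested genes were lower, and 2488 of the 14926 genes averaging at least 50 counts.

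**Figure D4:**
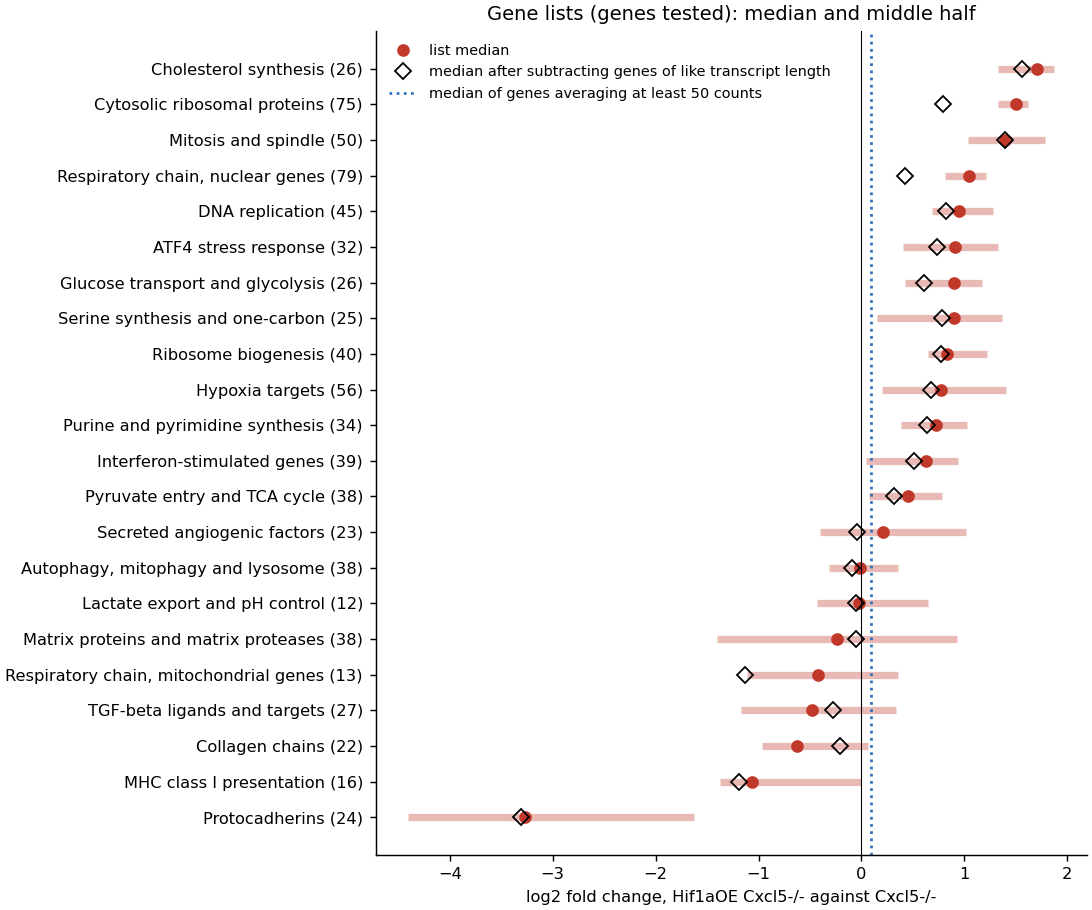
Median log2 fold change (Hif1aOECxcl5-/- against Cxcl5-/-) of 22 gene lists, with the number of genes tested in brackets; bars span the middle 50% of members, diamonds are medians after subtracting genes of like transcript length, and the dotted line is the median of genes averaging at least 50 counts (0.09). Cholesterol synthesis has the highest median (1.71) and the protocadherins the lowest (-3.27), and the diamonds of ribosomal proteins (0.79) and nuclear respiratory genes (0.42) lie well under their medians (1.5 and 1.04).

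Collagen and matrix genes had more lower than higher members. Of 22 collagen chain genes 1 was higher (4.55%) and 12 lower (54.5%), with a median log2 fold change of -0.63, then -0.21 after subtracting genes of like length. Of 38 matrix proteins and proteases 6 were higher (15.8%) and 18 lower (47.4%), with a median of -0.24, then -0.05, and -0.37 without Hif1aOECxcl5-/- replicate 3. Over genes averaging at least 50 counts 33.7% were higher and 24.9% lower. Both lists are long (median 6284 and 5150 bases), and in the class with the longest transcripts 16.1% were higher and 45.3% lower. The matrix shares lay near those of that class, and the part of length was not tested. Fn1, fibronectin, fell from 12300 CPM in both Cxcl5-/- samples to 5440, 4340 and 6060 CPM (log2 fold change -1.22, standard error 0.143, adjusted p = 5.09e-05), with 4460 and 4580 CPM in WT. Col12a1, a fibril-associated collagen, fell from 867 and 858 CPM to 42.2, 62.1 and 70.2 CPM (log2 fold change -3.89, adjusted p = 4.52e-07), under the WT level of 129 and 158 CPM. Tnc, tenascin C, fell from 17.9 and 17.2 CPM to 0.275, 0.122 and 0.524 CPM (log2 fold change -5.83, adjusted p = 4.35e-06). Mmp2, a gelatinase, fell by 4.37 on the log2 scale. The stromelysin genes went the opposite way. Mmp3 was at 1.62 and 1.06 CPM in Cxcl5-/- and at 64.3, 149 and 83.4 CPM in Hif1aOECxcl5-/- (log2 fold change 6.21, standard error 0.426, adjusted p = 1.42e-06), and under 1 CPM in every WT and MycOECxcl5-/- sample.

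Epithelial and mesenchymal lists had shares of calls near or under those over genes averaging at least 50 counts (33.7% higher and 24.9% lower). Of 11 tested ductal epithelium markers 4 were higher (36.4%) and 2 lower (18.2%). Of 17 factors of the epithelial-mesenchymal transition 5 were higher (29.4%) and 4 lower (23.5%), or 2 and 4 with library totals. Of 57 integrin and cell adhesion genes 15 were higher (26.3%) and 10 lower (17.5%), or 9 and 12 with library totals. Each of these lists held calls in both directions. The genes named next are single genes and do not stand for the lists. Zeb1, a repressor of epithelial genes, fell from 57.0 and 53 CPM to 4.14, 5.73 and 5.66 CPM (log2 fold change -3.41, adjusted p = 4.86e-08), while WT had 35.1 and 29.4 CPM and MycOECxcl5-/- 43.8, 44.9 and 43.9 CPM. The keratin gene Krt18 rose from 84.9 and 93.0 CPM to 373, 349 and 314 CPM (log2 fold change 1.96, adjusted p = 4.59e-07), and Krt7 from 1.33 and 1.81 CPM to 38.5, 20.8 and 27.3 CPM (log2 fold change 4.2, adjusted p = 2.38e-06). Itga6, a laminin-binding integrin, rose from 2.08 and 1.99 CPM to 38.3, 35.4 and 37.4 CPM (log2 fold change 4.19, adjusted p = 1.22e-08). Cdh1, E-cadherin, was at or under 0.207 CPM in all 5 samples and did not pass the test. Among epithelial markers Krt8 and Krt18 were counted in both groups, while the defining marker Cdh1 was near 0 and Krt19 was under 1 CPM in both. These markers did not settle the cell type, which is taken from the labels.

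Of 9 tested fibroblast markers 0 were higher and 7 lower by edgeR, and their summed level was 1523 to 1564 CPM in Cxcl5-/-, 631 to 739 CPM in Hif1aOECxcl5-/- and 301 to 317 CPM in WT. Pdgfra, a receptor of mesenchymal cells, fell from 112 and 109 CPM to 3.88, 6.36 and 7.07 CPM (log2 fold change -4.25, adjusted p = 9.18e-08). Acta2, smooth muscle actin, fell by 3.82 and Lum, lumican, by 4.26 on the log2 scale. MycOECxcl5-/- spheroids kept Pdgfra at 144, 141 and 163 CPM. In bulk samples fewer cells of a type and less RNA per cell cannot be told apart, and whether these genes come from the cancer cells was not tested. In the study's methods the spheroids were seeded from the cancer line, with no stromal cells named. Of the 8 tested macrophage markers 2 were higher and 0 lower by edgeR, with Adgre1 at 0 in all 5 samples, and the summed level was 34.6 to 34.8 CPM in Cxcl5-/- and 45.3 to 64.0 CPM in Hif1aOECxcl5-/-. Of the 7 tested endothelial markers 1 was higher and 1 lower, with a summed level of 0.199 to 1.19 CPM in Hif1aOECxcl5-/-, and of the 6 acinar ones 0 were higher and 1 lower. In these last 3 lists the shares higher (25%, 14.3% and 0%) and lower (0%, 14.3% and 16.7%) lay under those over genes averaging at least 50 counts (33.7% and 24.9%). Over all tested genes, which include low counts, the shares were 20.5% and 15.0%. The macrophage share higher and the acinar share lower lay above these. The counts of 0 in these marker lists were 0 as well at an unadjusted p under 0.05 and by DESeq2.

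Protocadherins and genes of TGF-beta signalling were among the falls. Of 24 protocadherins, cell adhesion molecules encoded in clusters, 0 were higher and 18 lower by edgeR (1 higher at an unadjusted p under 0.05 and 1 by DESeq2), with a median log2 fold change of -3.27 (-3.31 after subtracting genes of like length). Pcdhb9 fell from 34.4 and 39.2 CPM to 0.392, 0.734 and 0.416 CPM (log2 fold change -6.15, standard error 0.244, adjusted p = 4.86e-08). Members of the cluster resemble each other in sequence, so shared reads make single values uncertain. Of 27 TGF-beta ligands and targets 4 were higher and 14 lower (median -0.49, then -0.28 after subtracting genes of like length), with Tgfb3 falling by 2.50, the binding protein gene Ltbp3 by 1.91 and Tgfb1 by 1.06 on the log2 scale. Of 23 secreted angiogenic factors 7 were higher (30.4%) and 6 lower (26.1%), shares near those over genes averaging at least 50 counts (33.7% and 24.9%). The sign of their median (0.21) changed with library totals (-0.02) and after subtracting genes of like length (-0.04). Besides Vegfa, Pgf rose, whereas Ccn2 fell from 278 and 277 CPM to 9.29, 13.5 and 15.2 CPM (log2 fold change -4.45, adjusted p = 4.86e-08) and Angpt1 from 1070 CPM in both samples to 217, 245 and 246 CPM (log2 fold change -2.18, adjusted p = 7.24e-08). For Ccn2 and Angpt1 WT lay near Hif1aOECxcl5-/-, at 16.1 CPM in both WT samples and at 259 and 244 CPM.

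Immune lists differed in direction. Of 16 genes for MHC class I presentation 1 was higher and 11 lower (median log2 fold change -1.06, then -1.19 after subtracting genes of like length). B2m, the invariant light chain, fell from 2260 and 2280 CPM to 901, 1160 and 913 CPM (log2 fold change -1.20, standard error 0.139, adjusted p = 4.93e-05), and Nlrc5, the activator of this gene class, from 124 and 131 CPM to 35.6, 35.6 and 34.3 CPM (log2 fold change -1.86, adjusted p = 4.86e-08). WT samples had B2m at 1240 and 1250 CPM and Nlrc5 at 31.1 and 32.8 CPM. Reads of H2 class I genes can be shared between near-identical members. The ligand gene Cd274, which encodes PD-L1, fell by 1.00 on the log2 scale (adjusted p = 0.00163). Of 39 interferon-stimulated genes 21 were higher and 3 lower (12 and 6 with library totals; median 0.63, then 0.51), with Oas3 rising from 2.30 and 1.48 CPM to 6.96, 6.26 and 4.63 CPM, while Ifit2 fell by 0.92 on the log2 scale. Of 34 chemokine and cytokine genes 12 were higher (35.3%) and 7 lower (20.6%), or 10 and 9 with library totals, near the 33.7% and 24.9% over genes averaging at least 50 counts. Among them the monocyte chemokine gene Ccl2 rose from 18.1 and 17.4 CPM to 155, 246 and 158 CPM (log2 fold change 3.39, adjusted p = 6.02e-07), above WT at 67.3 and 69.9 CPM and MycOECxcl5-/- at 35.1 to 41.7 CPM. Ptgs2, the inducible prostaglandin synthase, rose from 54.3 and 54.2 CPM to 223, 250 and 203 CPM (log2 fold change 2.05, adjusted p = 4.8e-07), with 976 and 933 CPM in WT.

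Large single changes included genes at or near 0 counts in one group. Cck, a gut and brain peptide hormone gene (chr9:121489824-121495694, minus strand), had 0 counts in both Cxcl5-/- samples and in all 3 MycOECxcl5-/- samples, and 37.6, 138 and 48.0 CPM in Hif1aOECxcl5-/-. Taken against a floor of 3 counts per library, it was at least 1210-fold higher than in Cxcl5-/- (adjusted p = 6.86e-05), a bound that was 695-fold without replicate 2. Mmp10, another stromelysin gene, also at 0 counts in Cxcl5-/-, was at 4.72, 9.59 and 5.71 CPM, at least 108-fold higher. Samples with the transgene agreed in direction and spread widely in size, with replicate 2 highest for Cck, Mmp3 and Mmp10. Among the falls, Olfml1, at 7.87 and 7.37 CPM in Cxcl5-/-, had 0 counts in all 3 Hif1aOECxcl5-/- samples, at least 138-fold lower. Insc, an adaptor of spindle orientation, fell from 22.6 and 21.6 CPM to 0, 0.0874 and 0.145 CPM (log2 fold change -8.08, adjusted p = 8.51e-07), and Il13ra2, a decoy receptor for interleukin 13, from 50.1 and 52.4 CPM to 0.608, 0.315 and 0.669 CPM (log2 fold change -6.60, adjusted p = 4.86e-08). Mga, a repressor that competes for Myc sites, fell from 109 and 101 CPM to 7.12, 11.4 and 12.9 CPM (log2 fold change -3.32, adjusted p = 5.22e-07) and was at 78.7 to 99.5 CPM in MycOECxcl5-/-.

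A separate set of samples in the series, 3D WT and Cxcl5-/- spheroids counted in another table, allowed the genes to be split without using the Cxcl5-/- samples of the comparison. In that set the Cxcl5 count itself went against the label and was 0.91 log2 units higher in libraries that carry the 3D Cxcl5-/- label than in 3D WT ones (adjusted p = 0.000173), while Hif1a and Myc were lower (log2 fold change -1.21, adjusted p = 4.13e-07, and -1.75, adjusted p = 8.94e-08). Of the 21367 genes tested there, 19.7% were called higher and 25.3% called lower in the libraries labelled Cxcl5-/- at an adjusted p under 0.05. Over the 21058 genes tested in both tables, 25.8% were higher and 19.7% lower in Hif1aOECxcl5-/- than in Cxcl5-/-. Of the 5361 genes lower in the libraries labelled 3D Cxcl5-/-, 60.3% were higher in Hif1aOECxcl5-/- and 5.48% lower, with a median log2 fold change of 0.65. Of the 4207 genes higher there, 55.8% were lower in Hif1aOECxcl5-/- and 5.35% higher, with a median of -0.69. Leaving out replicate 1 of the rescue Cxcl5-/- samples brought the shares to 49.7% and 42.4%. For the 11490 genes not called there, the shares were 17.1% higher and 13.2% lower.

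Set against WT in the rescue table, 19.7% of the genes lower in libraries labelled 3D Cxcl5-/- were still under WT in Hif1aOECxcl5-/- and 15.5% were above it, against 8.85% and 18.9% of all 21058 genes. Of the genes higher there, 33.8% were still above WT and 5.13% were under it. Transcript length moved with this result too. Of the genes lower in the libraries labelled 3D Cxcl5-/-, 81.7% rose in Hif1aOECxcl5-/- in the class with the shortest transcripts and 41.6% in the class with the longest. Of the genes higher there 41.9% and 73.8% fell. Over all genes of these 2 classes 53.9% and 16.1% rose, and 9.29% and 45.3% fell. The separate 3D comparison of Cxcl5-/- with WT also followed length, in the opposite direction. Its median log2 fold change was -0.29 in the shortest class and 0.13 in the longest. The part of length in these shares was not tested.

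**Figure D5:**
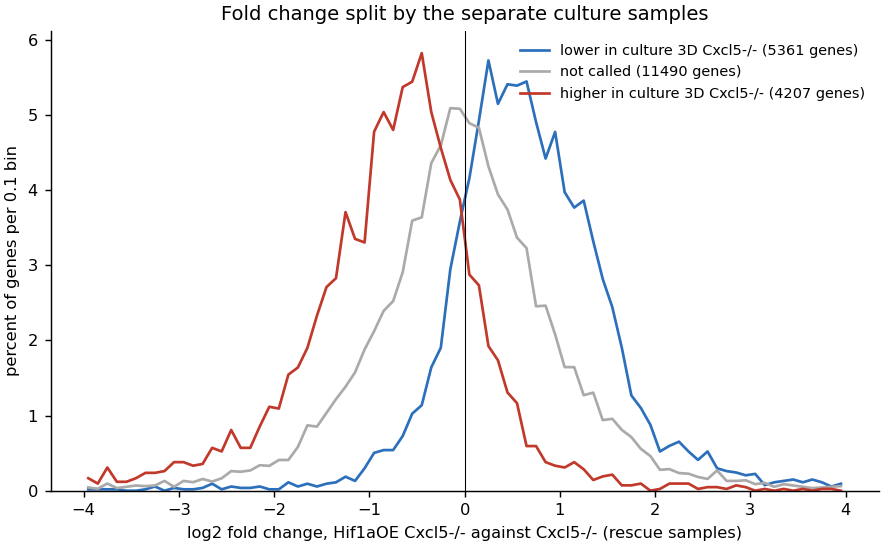
Distribution of log2 fold changes (Hif1aOECxcl5-/- against Cxcl5-/-, percent of genes per bin of 0.1) for genes lower, higher or not called in the separate 3D libraries labelled Cxcl5-/- against WT. The 5361 lower genes are centred at 0.65, the 4207 higher genes at -0.69, and the 11490 others near 0.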

How the data were processed

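RNA was sequenced from 3D spheroids with a stranded total RNA library kit and paired-end reads. Per the study's methods and the submitters' processing notes, the authors aligned reads with HISAT2 to mm10 (GRCm38) and deposited counts per gene made with StringTie; the annotation release is not given in the sources used here. The counts were used as deposited, 10 rescue samples for the main comparisons and 12 samples of the culture table for the split; columns of other series numbered 0. Genes were filtered with edgeR (version 4.0.16, R version 4.3.3), scaled by TMM and tested with the quasi-likelihood test (glmQLFit, glmQLFTest) in 1 fit over the 4 groups, with Benjamini-Hochberg adjustment over all genes tested and a threshold of 0.05. DESeq2 (version 1.42.0), other scalings and filters, a replicate block and leaving out each sample were tried as alternatives. CPM values use TMM library sizes.

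Members and gene lists were chosen with earlier results of these data known. Named genes were Hif1a, Cxcl5 and Myc, the genes the study names for the overexpression lines, the 10 largest called changes in each direction among annotated genes averaging at least 50 counts with no overlap between groups, and up to 4 called members in each direction from each list, with other list members given by value. Transcript length is the longest annotated transcript. On simulated counts for Hif1aOECxcl5-/- against Cxcl5-/- (25429 genes), 53% of genes changed by 1 log2 unit and 85% of those changed by 2 were recovered, and 2.82% of calls were false. The simulation changed 100 genes by each amount, equally up and down, and gave all others the same mean in every group. It held no trend with transcript length and no shift in library composition, so its 2.82% does not measure false calls in these data. No 2 replicates agreed within sampling noise. The median chi-square per gene was 2.83 between the Cxcl5-/- samples and 4.68 to 13.9 between Hif1aOECxcl5-/- samples. The Cxcl5-/- group had fewer samples than the Hif1aOECxcl5-/- group, which limits the precision. Its libraries were also less deep, and the part of depth was not tested.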

Additional observations from a re-analysis of the deposited data

How the results depend on the processing

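Hif1a kept its direction and its call under all alternatives tried. Cxcl5 passed the test under none; its log2 fold change was 0.04 and changed sign with DESeq2 size factors (-0.004), library totals (-0.19) and a filter of at least 10 counts in every sample (-0.027), and ranged from -0.054 to 0.12 with 1 sample left out. With 1 sample left out, genes higher than in Cxcl5-/- numbered 4288 to 5928 and genes lower 2863 to 4210, the smallest number without replicate 1 of Cxcl5-/-. Against WT the numbers were 2138 to 3884 higher and 1022 to 2392 lower, falling most without either WT sample (2138 higher and 1039 lower without replicate 1, 2174 higher and 1022 lower without replicate 2), since a single WT sample then remains and is assumed to vary like the other groups. Library totals gave 2209 genes higher than WT. DESeq2 gave 3020 higher and 3719 lower than WT, the opposite balance to edgeR. Counting genes averaging at least 50 counts, a choice made after the data were seen, gave 3918 higher and 1551 lower. The share of genes lower in the libraries labelled 3D Cxcl5-/- that rose was 58.9% with no filter and 64.4% for genes averaging at least 50 counts, and 49.7% to 61.8% with 1 sample left out. The share of the higher genes that fell was 57.8% by DESeq2, 52.5% with library totals, 49.0% with no filter and 61.3% for genes averaging at least 50 counts, and 42.4% to 58.6% with 1 sample left out; the cause of these shifts was not tested. Replicate numbers did not pair the samples (deviations of same-numbered samples correlated at -0.025 to 0.05 over 13 pairs). With the number as a replicate block 5849 genes were higher and 4375 lower than in Cxcl5-/-, 4150 and 2075 against WT, and 2868 and 2963 against MycOECxcl5-/-, and the share of higher genes that fell was 58.7%; the log2 fold changes of Hif1a and Cxcl5 were 0.96 and 0.11. Of 54 list medians, 41 moved by more than the spread between replicates with library totals and 4 changed sign. Of 342 called named genes, 62 lost the call with 1 sample left out, 11 lost it with library totals, and 0 changed sign there. Depth limits genes at or near 0 counts in Cxcl5-/-, whose fitted fold changes depend on the prior count.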
